A study of Mus musculus with 2 samples.

Results

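The exons described here are internal exons longer than 30 nucleotides (nt) that the SpliceTrap exon database classed as constitutive, and that were nevertheless skipped in part of the transcripts of N2A cells. N2A is a mouse neuroblastoma line. RNA-seq was done on 1 library from cells transfected with a control shRNA and on 1 library from cells transfected with an shRNA against Ptbp1, both collected 3 days after transfection and otherwise grown alike. There is 1 library for each condition, so no difference between them has a replicate check, and in these bulk samples a change in few cells cannot be told apart from a smaller change in all cells. SpliceTrap scores each exon in a trio with its 2 neighbours, and an exon was kept where at least 20 reads lay on the 3 junctions of its trio in each library and where its junction PSI was from 5 to 95% in at least 1 library. Junction PSI, the percent spliced in, sets the mean read count of the upstream and downstream inclusion junctions against that mean plus the skipping reads, which join the neighbours directly. The exons were thus chosen by their junction reads and junction PSI in these same libraries. This rule kept 3773 exons of 100883 constitutive-class exons over 30 nt with the minimum of reads, themselves part of 169525 exons of that class and length and of 190106 distinct middle exons in the whole table.

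Constitutive exons are spliced into nearly every mature transcript of a gene, whereas cassette exons are included or skipped in a regulated way. PTBP1 is an RNA binding protein that recognises short pyrimidine elements such as UCUU and CUCU, and it is best known for repressing exons from binding sites in the intron before the exon or in the exon itself. Its neuronal paralog PTBP2 rises when PTBP1 is lost, and skipping of a coding exon whose length is not a multiple of 3 shifts the reading frame, which often exposes the transcript to nonsense-mediated decay.

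The label was checked against other columns and annotations. SpliceTrap's own call for the trio was constitutive in both libraries for 2057 of the 3773 exons and cassette in at least 1 library for 1489. The skipping junction was present in a GENCODE transcript for 352 exons (9.33%), against 83.1% of the 3284 cassette-class exons over 30 nt that met the same limits and 1.30% of the 97110 constitutive-class exons outside the PSI limits. In the Cufflinks transcripts it was present for 567 exons in the control and 631 in the knockdown library. By these columns the skipped form was called, assembled or annotated for only part of the exons, while the junction reads that show it were what the rule used. They belonged to 2672 named genes, 45 had no gene name, and 749 genes held 2 or more of them. Of the 3773, 721 shared a splice site with another exon of the database, so their junction reads were partly the same and they are not independent of each other.

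The intron sequence before 9 of these exons is shown first, because the pyrimidine content before the exon is the feature that the sections below compare. Each line gives the last 100 nt of the intron on the mm9 assembly, read 5′ to 3′ on the strand of the gene and ending at the base before the exon. Capitals mark matches to TCTT, TTCT or CTCT. The 3 motifs were searched on the strand of the gene alone, and they overlap each other, for example in TTCTCTT. The first 5 lines belong to exons whose junction PSI was higher in the knockdown library and the last 4 to exons whose junction PSI was lower there. The 9 were picked by hand from the exons named below and not by a rule. A contrast between the lines therefore does not stand for the exons of either direction.
Slc8a1, chr17:81844934-81845033, minus strand: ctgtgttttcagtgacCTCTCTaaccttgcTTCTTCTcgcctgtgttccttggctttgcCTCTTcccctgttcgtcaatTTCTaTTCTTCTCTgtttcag
Dlg4, chr11:69857060-69857159, plus strand: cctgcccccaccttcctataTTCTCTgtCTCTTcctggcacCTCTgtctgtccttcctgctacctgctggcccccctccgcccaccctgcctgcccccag
Ehbp1, chr11:22051896-22051995, minus strand: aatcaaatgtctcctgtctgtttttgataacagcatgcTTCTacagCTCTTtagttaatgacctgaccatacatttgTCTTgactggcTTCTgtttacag
N4bp2, chr5:66179192-66179291, plus strand: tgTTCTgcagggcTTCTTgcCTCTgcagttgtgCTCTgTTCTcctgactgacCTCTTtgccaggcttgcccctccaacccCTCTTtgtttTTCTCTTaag
Iqsec2, before the exon at chrX:148615540-148615635, plus strand: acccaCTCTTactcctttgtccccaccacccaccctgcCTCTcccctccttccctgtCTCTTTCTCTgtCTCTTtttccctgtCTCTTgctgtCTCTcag
Cep152, chr2:125397570-125397669, minus strand: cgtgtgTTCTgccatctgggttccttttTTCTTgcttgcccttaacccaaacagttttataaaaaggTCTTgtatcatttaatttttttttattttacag
Hnrpdl, chr5:100465671-100465770, minus strand: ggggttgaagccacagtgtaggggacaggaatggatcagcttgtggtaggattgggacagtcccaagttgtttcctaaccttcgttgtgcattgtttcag
Gnl3, chr14:31831053-31831152, minus strand: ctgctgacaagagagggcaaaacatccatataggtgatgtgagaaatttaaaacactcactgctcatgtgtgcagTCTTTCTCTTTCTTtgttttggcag
Crocc, chr4:140577733-140577832, minus strand: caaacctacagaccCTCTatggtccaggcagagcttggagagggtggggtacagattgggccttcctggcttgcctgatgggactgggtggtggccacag

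These 9 introns differed widely in pyrimidines. Capitals covered 31 of the 100 bases before the Slc8a1 exon, 38 before that of N4bp2 and 33 before that of Iqsec2, but 4 before that of Crocc and 0 before that of Hnrpdl. The share of C and T was 77% for Slc8a1, 79% for Dlg4 and 85% for Iqsec2. For Ehbp1 it was 61%, for Cep152 66%, for Gnl3 51% and for Hnrpdl 46%. Among exons not printed, it was 46% for Map3k10 and 51% for Golgb1, both higher in the knockdown library. For Eps15l1 and Sik3, both lower there, it was 61 and 65%, with 4 and 3 matches to TCTT. These exons were picked because they go against the order of the printed lines. In the 100 nt before all the exons with skipping, TCTT was present for 58.9%, TTCT for 64.0% and CTCT for 54.0%. Before constitutive-class exons outside the PSI limits, windows of the same length held TCTT in 64.2%, TTCT in 67.5% and CTCT in 55.5%.

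Most of the 3773 exons were skipped in a small share of transcripts. Junction PSI had a median of 93.8% in the control, with quartiles of 88.9 and 96.5%, and of 92.5% in the knockdown library, with quartiles of 87.1 and 94.7%. Cassette-class exons under the same limits had medians of 67.7 and 66.0%. Only 89 of the exons had a control PSI under 50%, namely 5 under 5%, 25 from 5 to under 20% and 59 from 20 to under 50%, and 71 exons were under 50% in both libraries. The exons held 1099836 junction reads in the control and 963535 in the knockdown library, with quartiles of 59 to 348 and 62 to 304 for an exon. They had a median of 141 junction reads in the control and 139 in the knockdown library, and a median of 5 and 7 skipping reads. No skipping read was seen for 448 exons in the control and for 280 in the knockdown library.

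The difference in junction PSI, knockdown minus control, had a median of -2.02 points, quartiles of -5.71 and 2.89, and a range of -59.0 to 63.0. It was 5 points or more above 0 for 652 exons (17.3%) and 5 points or more below 0 for 1161 (30.8%), while 1960 moved by less. Over all 106632 exons over 30 nt of both classes with the minimum of reads, 1.32% were 5 points or more higher and 1.9% lower, over the constitutive class without a PSI limit 0.646% and 1.15%, and over the cassette class under the same limits 22.9% and 26.5%. The 95% Newcombe interval of the difference lay above 0 for 172 exons (4.56%) and below 0 for 473 (12.5%). It covers counting error alone, because each condition has 1 library. The reads carry no molecular identifiers, so copies of 1 molecule count as separate reads and the interval may be too narrow even for counting error. Below, an exon is said to have risen or fallen only where that interval excluded 0. Over all exons of both classes 0.79% lay above 0 and 1.76% below, and over the constitutive class without a PSI limit 0.31% and 1.25%. Of the cassette-class exons under the same limits, 14.9% lay above and 16.2% below. The rule chose the exons on these same reads, so the shares stand as a description and nothing is read from them about the exons as a set.

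**Figure D1:**
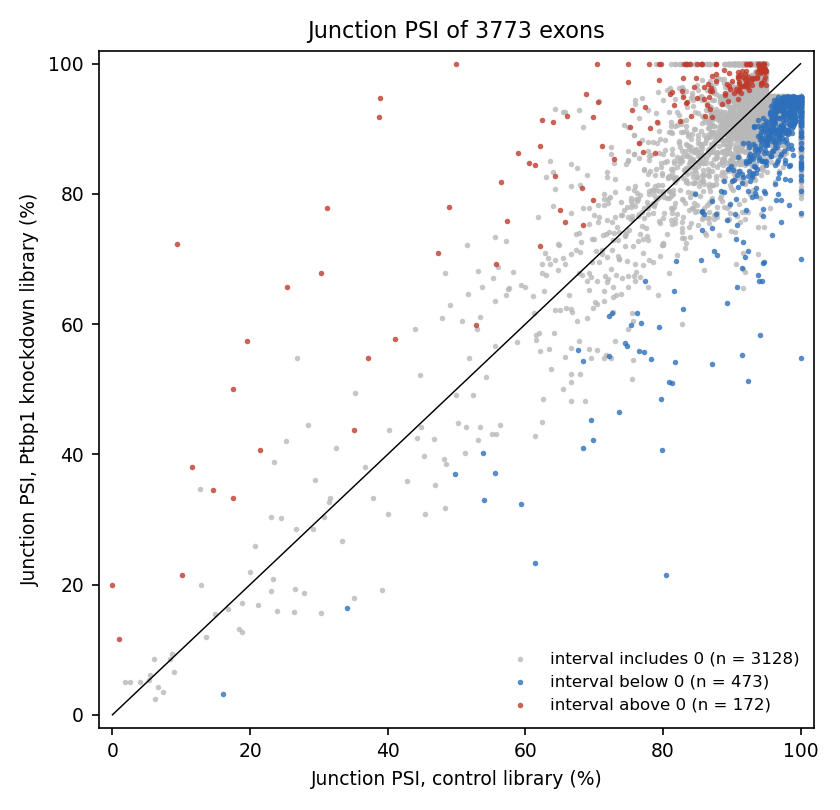
Junction PSI of each of the 3773 exons in the control library (horizontal axis, %) and in the Ptbp1 knockdown library (vertical axis, %), 1 point for each exon. Red points are the 172 exons whose 95% Newcombe interval lay above 0, blue points the 473 below 0 and grey points the rest, and the empty corner at the top right holds the exons above 95% in both libraries, which the rule left out.

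The limits of the rule fixed part of this pattern for single exons. An exon that entered through the control library alone was above 95% or under 5% in the knockdown library. These 741 exons had a median difference of 5.16 points, with the interval above 0 for 106 and below 0 for 1. The 1292 that entered through the knockdown library alone had one of -5.35, with the interval above 0 for 2 and below 0 for 324. The 1740 exons within the limits in both libraries had a median difference of -0.84 points, with 64 above 0 and 148 below 0. Among exons named below, those of Apba1 and Usp12 entered through the control library alone. Those of Sik3, Trio, Hnrpdl and Gnl3 entered through the knockdown library alone. The limits largely fixed the direction of these and of any other named exon above 95% in 1 library. The counts by level in the control library are likewise shaped by the limits, since an exon above 95% there was kept only if it was at 95% or less in the knockdown library. Of the 89 exons under 50% in the control library, 20 had risen and 3 had fallen, whereas from 50 to under 80% the counts were 39 and 26 of 365, from 80 to under 90% 45 and 28 of 612, from 90 to under 95% 67 and 91 of 1398, and from 95% up 1 and 325 of 1309.

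Skipping reads were pooled as a second description. Over the 3773 exons they made up 8.92% of skipping plus mean inclusion reads in the control and 10.6% in the knockdown library. For the constitutive-class exons outside the PSI limits the shares were 0.116% and 0.151%, and for the cassette class 45% and 44.3%. At the edges of the rule, the Yeats2 exon was at 95% in the control and 98.9% in the knockdown library and was kept, while the Sec24c exon, at 95.01% in the control library, was left out. At the lower limit the Limk1 exon reached 5.00% in the knockdown library and was kept, and an exon of 2900076A07Rik, at 4.54 and 4.95%, was left out. Of the exons kept, 37 had exactly 20 junction reads in the shallower library, and 38 exons with 19 reads were left out for depth alone.

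The targeted gene and the cells were checked once. Ptbp1 had a read depth of 2710 per base in control and 832 in knockdown cells, a log2 ratio of FPKM of -1.61. The log2 ratio was 0.93 for Ptbp2 and -0.88 for Ptbp3, a further paralog. Of the neuroblastoma markers reported here, Tubb3, Stmn2, Gap43, Dbh, Chga and Uchl1 had depths of 317 or more per base in both libraries (Dbh 317 and 1047, a log2 ratio of FPKM of 1.83), Th had 5.98 and 26.9, and Nefl and Nefm were under 1 in both. The glial markers Gfap and Aif1 were under 1 per base and Mbp at 10.3 and 4.54, and the muscle marker Myod1 was listed at 0 and Des at 7.38 and 12.4. Of the genes that hold the 24 largest differences described next, 23 had transcripts in both libraries, and their log2 ratios of FPKM lay between -0.61 and 1.15, with Apba1 the 1 gene outside -1 to 1.

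Of the exons, 2088 had at least 100 junction reads in each library, 129 of which rose and 422 of which fell. The 12 largest rises and 12 largest falls among them are given by the role of their genes, starting with the rises, and where 2 values stand for an exon without a library, the control library comes first. The largest was in Slc8a1, the plasma membrane sodium-calcium exchanger, whose coding exon of 107 nt lies on chr17:81844827-81844933. The control library had 22 reads on the junction before the exon, 14 on the junction after it and 174 on the skipping junction, a junction PSI of 9.38% (95% Wilson interval 6.01 to 14.3). The knockdown library had 211, 35 and 47 reads, a PSI of 72.4% (65.2 to 78.5). The difference was 63.0 points (Newcombe interval 54.3 to 70.0). The skipping junction joins the preceding exon to an exon of 104 nt at chr17:81844209-81844312, so the reads from the preceding exon went mostly to the 104 nt exon in the control and mostly to the 107 nt exon in the knockdown library. The junction after the 107 nt exon joins it to that same 104 nt exon, so its 14 and 35 reads come from transcripts that hold both and enter the PSI. From the smaller inclusion junction alone the difference was 35.2 points. Read coverage of the exon body relative to its neighbours, a measure that the rule did not use, was 0.29 in the control and 1.76 in the knockdown library.

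The exons with the largest rise and fall among those with at least 100 reads in each library, Slc8a1 and Cep152, are given with the Dlg4 and Hnrpdl exons described below. Each run holds 20 nt of the intron before the exon, the exon in capitals and 6 nt of the intron after it, on mm9 and on the strand of the gene.
Slc8a1, chr17:81844821-81844953: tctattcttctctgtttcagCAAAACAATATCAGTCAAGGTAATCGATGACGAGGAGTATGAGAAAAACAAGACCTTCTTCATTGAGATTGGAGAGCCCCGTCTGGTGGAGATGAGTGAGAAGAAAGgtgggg
Dlg4, chr11:69857140-69857275: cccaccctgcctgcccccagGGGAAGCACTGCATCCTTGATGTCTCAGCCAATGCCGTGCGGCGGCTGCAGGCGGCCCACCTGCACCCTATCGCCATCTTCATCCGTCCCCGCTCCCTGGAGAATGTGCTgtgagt
Cep152, chr2:125397399-125397589: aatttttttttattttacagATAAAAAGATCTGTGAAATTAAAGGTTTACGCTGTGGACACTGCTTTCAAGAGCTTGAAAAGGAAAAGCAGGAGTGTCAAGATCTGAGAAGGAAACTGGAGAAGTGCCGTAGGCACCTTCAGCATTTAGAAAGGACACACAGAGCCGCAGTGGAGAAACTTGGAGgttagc
Hnrpdl, chr5:100465494-100465690: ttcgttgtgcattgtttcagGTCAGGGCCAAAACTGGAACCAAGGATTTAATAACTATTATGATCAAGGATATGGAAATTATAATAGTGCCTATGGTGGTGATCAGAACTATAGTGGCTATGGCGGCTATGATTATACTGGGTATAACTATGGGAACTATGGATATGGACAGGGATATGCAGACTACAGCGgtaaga

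Synaptic and neuronal signalling genes held 3 further rises. Dlg4 encodes PSD-95, the scaffold of the postsynaptic density, and its coding exon of 110 nt (chr11:69857160-69857269) is known to be repressed by PTB proteins. It had 114 and 231 inclusion reads against 192 skipping reads in the control, a PSI of 47.3% (42.3 to 52.5), and 211 and 374 against 120 in the knockdown library, a PSI of 70.9% (66.4 to 75.1). Its rise was 23.6 points (16.7 to 30.1), while the log2 ratio of FPKM of the gene was -0.05. Srgap3, a GTPase-activating protein of the Slit-Robo pathway, held a coding exon of 328 nt that went from 61.3 to 84.4%, with 46 and 27 skipping reads. Apba1, an adaptor that binds the amyloid precursor protein, held an in-frame exon of 33 nt at 78.0% in the control library. No skipping read was left in the knockdown library against 129 and 53 inclusion reads, so its PSI there was 100% with a lower bound of 96.0%. The Apba1 rise was 40.6 points from the smaller junction and 14.3 by SpliceTrap's ratio. This exon entered through the control library alone, which largely fixed its direction.

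Membrane traffic genes held a pair of the larger rises. Ehbp1, an endocytic adaptor that links vesicles to actin, had a coding exon of 105 nt (chr11:22051791-22051895) at 58.9% in the control and 86.3% in the knockdown library, with 78 and 19 skipping reads. The rise was 27.3 points (17.9 to 35.9), and its inclusion junctions were read about equally, at 111 and 113 reads in the control and 124 and 115 in the knockdown library. Golgb1, the Golgi tether giantin, had an exon at 70.6% and 94.1%, with 20 and 4 skipping reads. A form of the Golgb1 exon that begins 18 nt further downstream and shares the other splice site and the skipping reads went from 64.0 to 91.1%.

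The other rises were smaller. Map3k10, a mixed-lineage kinase of the JNK pathway, had an exon at 41.0 and 57.8%, and the N4bp2 exon of 89 nt, which is not coding in GENCODE, was at 64.4 and 82.7%. The exon of 4932438A13Rik, of 51 nt, was at 37.1 and 54.8%, that of Phtf1, of 57 nt, at 75.6 and 92.9%, and that of Fam115a at 17.5 and 33.3%. In Lrig2, a membrane protein with leucine-rich repeats, the listed exon went from 75.3 to 90.3%. That exon matches no exon in GENCODE and shares a splice site with another exon of the database. Its junction before the exon had 0 and 4 reads against 140 and 145 on the junction after it, so its PSI rests almost wholly on 1 junction. The Lrig2 rise was 8.88 points from the larger and 33.3 from the smaller junction.

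Among the 12 largest falls, 4 lay in genes of the centrosome, chromatin and cilium. The largest was in Cep152, a scaffold of centriole duplication, in a coding exon of 165 nt (chr2:125397405-125397569). Control cells gave 136 and 135 inclusion reads and 34 skipping reads, a PSI of 79.9% (73.4 to 85.3), and the knockdown library had 67 and 51 against 86, a PSI of 40.7% (33.0 to 48.8). The difference was -39.3 points (-48.6 to -28.8), and coverage of the exon body relative to its neighbours went from 1.25 to 0.66. Ep400, a chromatin remodelling ATPase, had an exon of 175 nt at 81.7 and 54.2%, a difference that SpliceTrap's ratio put at -17.1 points. A form of the Ep400 exon of 196 nt shares a splice site and had more junction reads, 387 and 348 against 189 and 182. It was at 90.6 and 73.1%, a difference of -17.5 points. Crocc, which encodes the rootletin of the ciliary rootlet, had an exon at 92.3 and 71.2%. In Dpf2, a subunit of the BAF chromatin remodelling complex, the listed exon went from 94.6 to 69.4%, but its junction before the exon had 0 reads in both libraries against 697 and 186 on the other side.

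Genes of membrane traffic and signalling held most of the other falls. Eps15l1, an endocytic adaptor, had a coding exon of 133 nt at 69.8 and 42.2%, with 29 and 52 skipping reads. Ap1s3, a subunit of the AP-1 clathrin adaptor, had an exon of 109 nt at 82.9 and 62.3%, with 45 and 76 skipping reads. Inpp5b, an inositol polyphosphate 5-phosphatase, went from 91.5 to 55.2%, with 138 and 12 inclusion reads in the control and 87 and 14 in the knockdown library. Sik3, a salt-inducible kinase, had an in-frame exon of 144 nt at 98.3 and 78.3%, with 2 and 20 skipping reads. The Sik3 exon and the Trio exon given next entered through the knockdown library alone, which largely fixed their direction. Trio, a guanine nucleotide exchange factor, had a listed exon at 100 and 80.4%, with 0 and 14 skipping reads and inclusion junctions of 183 and 7 reads in the control library. The Trio difference was -11.7 points from the larger and -60.9 from the smaller junction. The listed exons of Inpp5b, Trio and Dpf2 match no exon in GENCODE and share a splice site with another exon of the database. Their inclusion reads therefore cannot all be assigned to the listed form. The remaining 3 falls were in BC028528 (77.3 and 55.7%), 2210408F21Rik (54.0 and 32.9%) and Xlr (91.4 and 68.7%), and Xlr belongs to a family of near-identical X-linked genes, between which reads cannot be assigned with certainty.

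**Figure D2:**
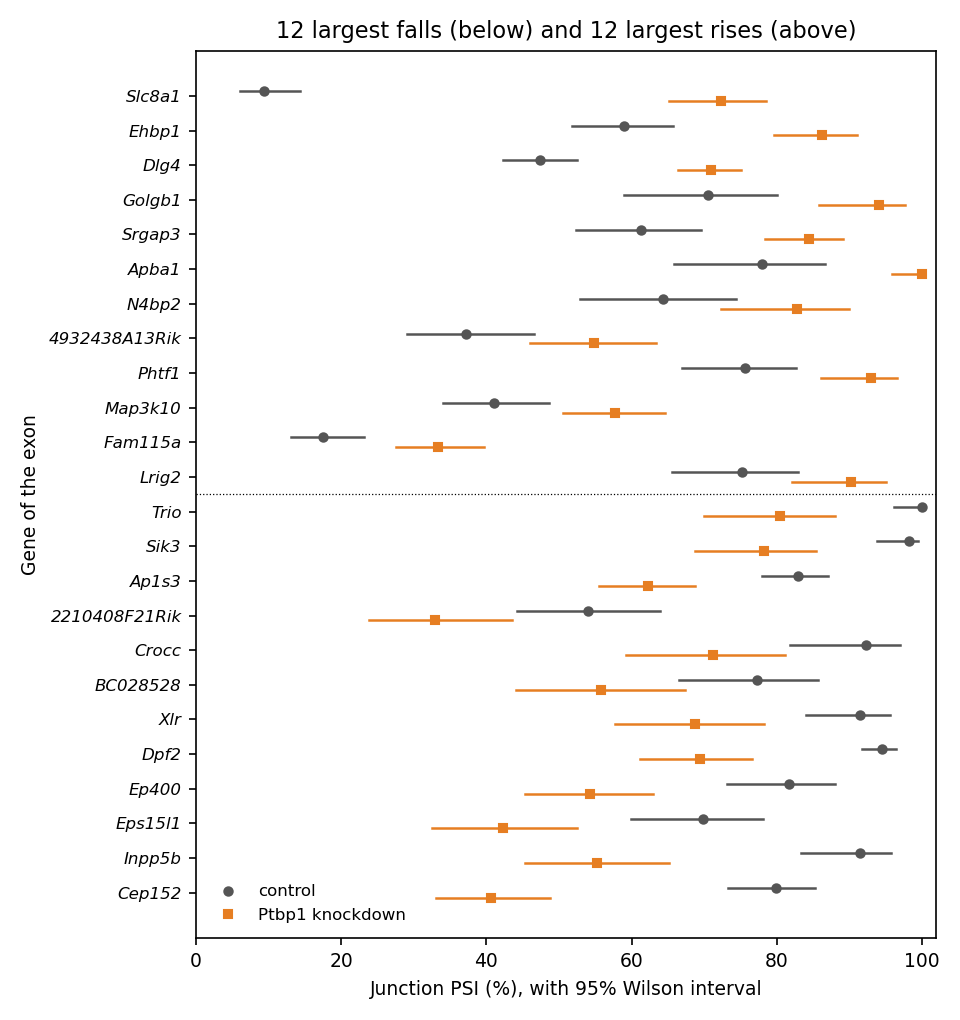
Junction PSI (horizontal axis, %) of the 12 largest rises and 12 largest falls among exons with at least 100 junction reads in each library. Grey circles are the control library, orange squares the Ptbp1 knockdown library and lines the 95% Wilson intervals, and the Slc8a1 exon, at 9.38 and 72.4%, and the Cep152 exon, at 79.9 and 40.7%, lie at the ends.

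Exons with a larger difference but fewer reads fell outside that naming rule, and they were picked here after their values were seen. An exon of Epb4.1l2, a protein that ties the membrane to the actin cytoskeleton, was at 38.8% in the control library with 93 junction reads and at 91.9% in the knockdown library with 284, a rise of 53.1 points (39.9 to 64.4). In Aak1, a kinase of the clathrin adaptor AP-2, a downstream exon was at 38.9% with 10 and 4 inclusion and 11 skipping reads, and at 94.7% with 112 and 138 inclusion and 7 skipping reads. An earlier Aak1 exon, of 96 nt, went the other way, from 96.7 to 80.1%. An exon of 36 nt in Atp2b4, a plasma membrane calcium pump, was at 80.4% with 46 reads and 21.4% with 68, a fall with an interval of -73.2 to -37.0 points. In Cacna1g, a T-type calcium channel, an exon of 54 nt was at 100% with 20 reads and 54.8% with 24. An exon of 104 nt in Ehhadh, a peroxisomal enzyme of fatty acid oxidation, was at 92.3 and 51.3%, with 2 and 29 skipping reads.

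The study also listed 50 exons predicted from sequence alone as targets of PTBP1. Of these, 49 matched an exon start in the database, 16 of them a constitutive-class exon over 30 nt with no cassette-class exon at the same start, and 4 were among the exons described here. The Acsl6 exon, in a long-chain acyl-CoA synthetase, had 7 skipping reads and a PSI of 91.0% in the control and 2 skipping reads and 98.7% in the knockdown library, a rise of 7.72 points (2.02 to 16.1). The Iqsec2 exon, in an exchange factor for ARF GTPases at synapses, had 4 skipping reads in each library, but its inclusion reads were 7 and 17 in the control and 105 and 170 in the knockdown library. Its PSI was 75% (50.5 to 89.8) and 97.2% (93 to 98.9), and the log2 ratio of FPKM of Iqsec2 was 1.51. Snap91, the neuronal clathrin adaptor AP180, was at 93.8 and 98.1% with an interval of -2.28 to 17.8 points, and Epn1, an endocytic epsin, at 82.1 and 85.7% with one of -6.35 to 13.6. The last 2 differences were not distinguishable from 0 at this depth. Acsl6, Iqsec2 and Snap91 were above 95% in the knockdown library and so entered through the control library alone, which fixed their direction. A predicted Slc39a14 exon, at 100% with 192 reads and 96.7% with 120, was left out by the same limits. So were those of Pax6 and Tle1 (100% in both libraries), Mapk8 (98.1 and 99.2%), Garnl3 (97.2 and 98.3%) and Tmem209 (99.7 and 99.8%). The listed exons of Itga7, Ttn, Stx3, Csmd3 and Lrrfip1 lacked the minimum of reads.

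By gene group, the exons were sorted with lists of gene symbols, and each list is set beside 4.56% risen and 12.5% fallen over all 3773. Cell cycle and DNA repair genes held 76 exons, of which 2 had risen and 15 had fallen (19.7%), with a median difference of -3.14 points. The exons with most reads were those of Rpa3, a subunit of the single-strand binding protein RPA, at 87.2 and 91.9%, of Tipin, a fork protection factor, at 95.9 and 93.9%, and of Mcm4, a subunit of the replicative helicase, at 98.1 and 94.7%. Named here after their values were seen, the checkpoint kinase Atr had an exon at 96.4 and 79.1% and the Fanconi anaemia protein Fancd2 one at 100 and 85.7%. Chek2, a checkpoint kinase, was at 97.6 and 90%, and Pole, the catalytic subunit of DNA polymerase epsilon, at 100 and 94.4%. Most of these falls began near full inclusion.

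RNA binding and splicing genes held 81 exons, with 6 risen and 15 fallen (18.5%). The exon of the hnRNP gene Hnrpdl had the most junction reads, with 2291 and 2837 inclusion reads and 88 skipping reads in the control and 1841 and 2237 against 185 in the knockdown library. Its PSI was 96.7% (95.9 to 97.3) and 91.7% (90.5 to 92.8), a difference of -5.0 points (-6.37 to -3.69). The exon is 171 nt long and in frame, and the 100 nt before it, printed above, held no match to the 3 motifs. The exon of Hnrnpul2 (81.9 and 82.6%) had an interval that included 0. Among the other exons that had changed, and chosen after their values were seen, an exon of the RNA helicase Ddx17 was at 95.8 and 88.2% and one of the nonsense-mediated decay factor Upf1 at 94.9 and 89.0%. In the other direction, the coding exon of 156 nt in Dicer1, the microRNA processing nuclease, was at 94.0 and 99.0%, and that of 150 nt in Tnrc6c, a partner of Argonaute, at 86.8 and 95.8%. A second Dicer1 exon, of 98 nt and not coding, fell from 95.1 to 87.5%.

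Ubiquitin and proteasome genes held 122 exons, 11 risen and 21 fallen. The exon of Cops4, a subunit of the COP9 signalosome, was at 95.2 and 94.1% with an interval that included 0. That of the ubiquitin ligase Huwe1 fell from 92.4 to 87.9%, and that of the deubiquitinase Usp12 rose from 94.8 to 97.9%, with 79 and 13 skipping reads. Of 36 exons in translation genes 3 had risen and 4 had fallen. Gnl3, the nucleolar GTPase nucleostemin, had an exon of 59 nt at 96.9 and 88.7%, with 37 and 103 skipping reads, and Nol12 one at 93.9 and 90.5%, with a difference of -10.3 points from the smaller junction and -2.02 from the larger. The exon of the initiation factor Eif4g1 was at 93.1 and 93%.

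Membrane traffic genes held 86 exons, with 4 risen and 9 fallen. The SNARE gene Stx16 held 2 of the most deeply read. The exon of 166 nt was at 72.6% (69.1 to 75.8) and 61.7% (57.6 to 65.7), with 190 and 212 skipping reads. An exon of 144 nt further downstream, not adjacent to it, was at 95.4 and 92.9% with an interval that included 0. The exon of Snap47, also a SNARE gene, was at 96.1 and 94.1%. In 136 exons of kinases, phosphatases and GTPase regulators, 5 had risen and 16 had fallen. The deepest of these were exons of Ppp3cb, a catalytic subunit of calcineurin (93.1 and 94.0%), of Cdk11b (95.7 and 94.4%) and of the kinase Akt1 (95 and 93.4%), with intervals that included 0.

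Chromatin and transcription genes held 235 exons, 8 risen and 20 fallen. The deepest were those of Phf10, a BAF subunit (92.7 and 94.5%), of the histone demethylase Kdm5c (73.0 and 74.0%) and of the histone methyltransferase Ezh2 (94.2 and 93.6%). The Kdm5c exon was the most skipped of these, with 289 and 205 skipping reads, and its interval ran from -3.07 to 5.04 points. Mitochondrial and metabolic genes held 42 exons, 2 risen and 4 fallen. The deepest were those of Slc25a33 (95.3 and 93.7%), of Sqle, the squalene epoxidase (94.8 and 95.4%), and of the citrate carrier Slc25a1 (92.3 and 94.1%), all with intervals that included 0.

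Neuronal channel and synapse genes held 80 exons, and the median difference was 2.00 points. Of these exons 31 were 5 points or more higher and 22 were 5 points or more lower in the knockdown library, but 3 had risen and 4 had fallen by the interval. Beside the Dlg4 exon given above, the deepest were those of the potassium channel Kcnh2 (93.5 and 96.2%), of the semaphorin receptor Plxnb2 (95.7 and 94.3%) and of Rims2, a protein of the presynaptic active zone (92.0 and 94.8%). Their intervals included 0. Cytoskeleton and adhesion genes held 68 exons, 3 risen and 3 fallen, with a median difference of 0.86 points. The Sept11 exon, in a septin, went from 96.7 to 94.8%, and those of the dynactin subunit Dctn2 (93.9 and 92.9%) and of Eml5 (93.6 and 94.1%) had intervals that included 0. Genes with exons known to respond to PTB proteins held 12 exons, 1 risen (Dlg4) and 2 fallen. One of the fallen was in Atp8a1, a phospholipid flippase, at 91.7 and 72.6%, with 18 and 42 skipping reads. The other was a Numb exon at 49.8 and 37.0%, named after its value was seen. The lists overlap, so the Dlg4 and Atp8a1 exons are also counted among the neuronal channel and synapse genes. Likewise the Ezh2 and Ppp3cb exons are counted both here and in the group given for them above.

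**Figure D3:**
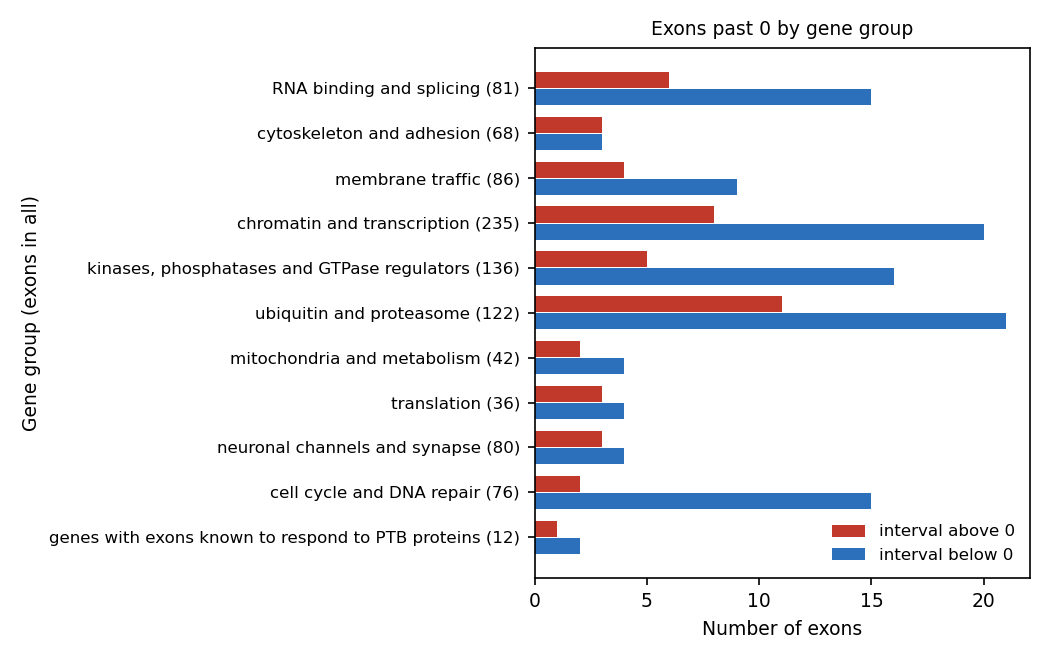
Number of exons (horizontal axis) whose 95% Newcombe interval lay above 0 (red) and below 0 (blue) in each gene group, with the exons of the group in parentheses. Cell cycle and DNA repair genes had 2 above and 15 below, and cytoskeleton and adhesion genes 3 and 3, where all 3773 exons had 172 and 473.

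Features that the rule did not use were compared next, without a test, since the direction that splits the exons came from the chosen reads and overlapping exons share sequence. Of the 172 risen exons 106 entered through the control library alone, and of the 473 fallen 324 through the knockdown library alone. For these the limits largely fixed the direction. The 1740 exons within the limits in both libraries were not compared separately. Frame differed by direction in this split. A GENCODE coding sequence covered the whole exon for 2994 of the 3773 exons, and the length of 1127 of these (37.6%, 95% Wilson interval 35.9 to 39.4) was a multiple of 3. Among coding exons that had risen it was 78 of 136 (57.4%, 49.0 to 65.4), and among those that had fallen 132 of 406 (32.5%, 28.1 to 37.2). Constitutive-class exons outside the limits stood at 38.6% and coding cassette-class exons of any direction at 60.4%. Coding cassette-class exons that had risen stood at 82.3% (265 of 322) and those that had fallen at 56.3%. Turned round, 6.92% of the in-frame coding exons rose and 11.7% fell, and 3.11% of the coding exons with another length rose and 14.7% fell.

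**Figure D4:**
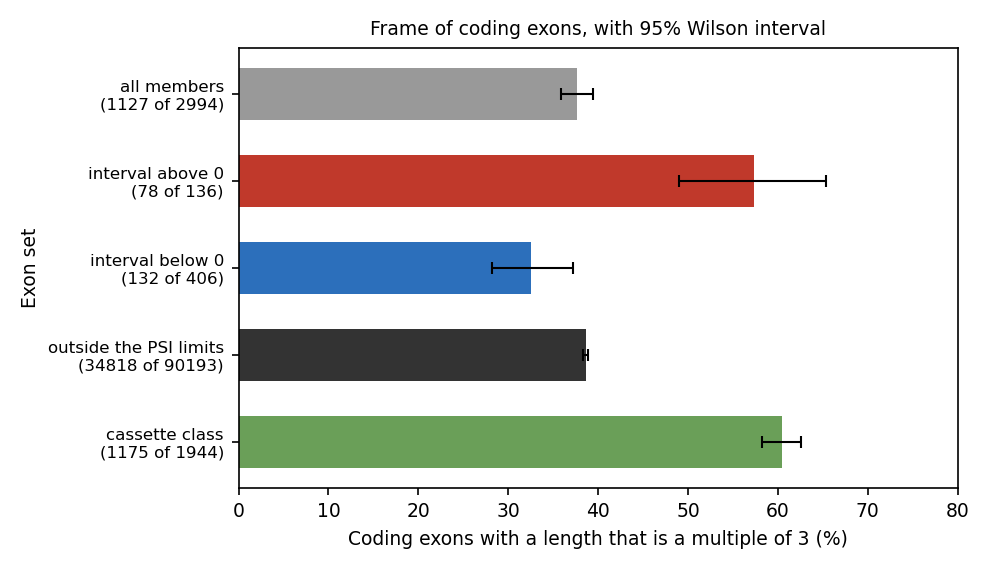
Percent of coding exons with a length that is a multiple of 3 (horizontal axis), with 95% Wilson intervals and counts in parentheses, for all 3773 exons (all members), those whose interval lay above 0 and below 0, constitutive-class exons outside the PSI limits, and cassette-class exons. The exons above 0 lie at 57.4% and those below 0 at 32.5%. The cassette class, drawn without a split by direction, lies at 60.4%, and its exons above 0 alone were at 82.3%.

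Upstream pyrimidines also differed by direction. In the 100 nt before the exon the median share of C and T was 55% for all 3773 and for exons outside the limits, 57% (quartiles 52 and 65) for exons that had risen and 53% (48 and 58) for those that had fallen. For the 75 exons that had risen by 10 points or more it was 61%. TCTT was present before 69.8% of the exons that had risen and 54.5% of those that had fallen, and TTCT before 75 and 60.0%. For CTCT the shares were closer, at 55.2 and 51.8%. Outside the limits they were 64.2% for TCTT, 67.5% for TTCT and 55.5% for CTCT. The longer CTCTCT was present before 8.72% of the risen and 7.19% of the fallen exons, and before 9.58% of those outside the limits. In the exon itself TCTT was present in 55.2% of the risen and 36.6% of the fallen exons, at median exon lengths of 123.5 and 120 nt. In the 100 nt after the exon TCTT was present for 48.8% of the risen and 50.7% of the fallen exons, TTCT for 53.5 and 49.3% and CTCT for 45.3 and 51.2%. Cassette-class exons under the same limits also differed by direction in the 100 nt before the exon. There the median share of C and T was 63% for risen and 56% for fallen exons, and TCTT was present before 77.5 and 60.8%. In that class CTCT was present before 69.1 and 50.8%, and CTCTCT before 20.7 and 8.66%.

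**Figure D5:**
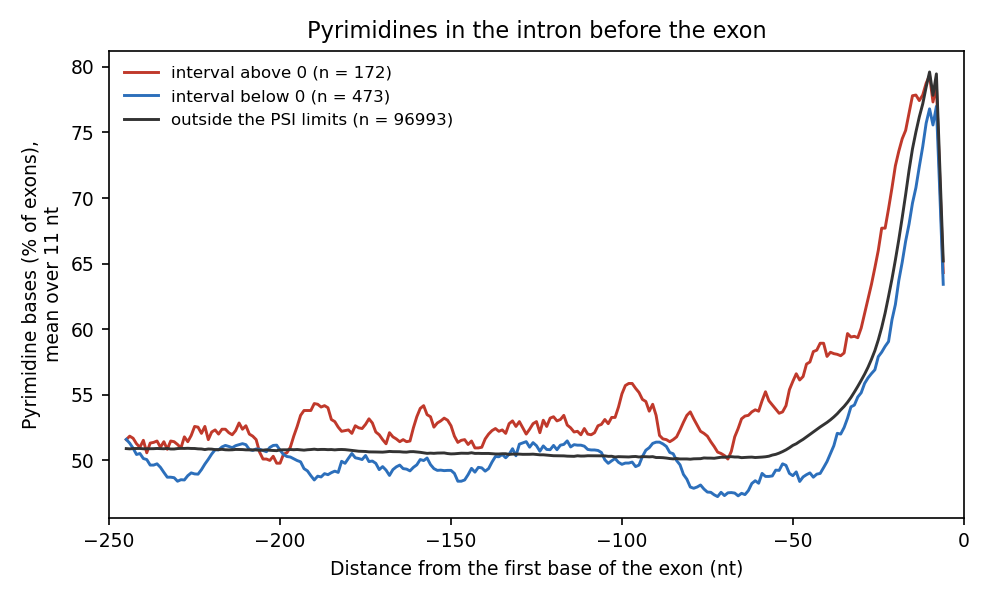
Percent of exons with C or T (vertical axis, mean over 11 nt) at each distance before the first base of the exon (horizontal axis, nt), for exons whose interval lay above 0 (red) and below 0 (blue) and for constitutive-class exons outside the PSI limits (black). The red line runs above the black between about 60 and 20 nt before the exon, and the blue line runs below it there.

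Splice sites were scored with position weights taken from the constitutive-class exons outside the limits, over 9 positions at the 5′ splice site and 23 at the 3′ splice site, where a higher score is closer to the common sequence. The 3773 exons had a median 5′ splice site score of 7.71, against 8.29 outside the limits and 7.53 for the cassette class. The 3′ splice site score was 8.78, against 9.41 and 8.71. By direction the 5′ scores were alike, at 7.74 for risen and 7.59 for fallen exons, while the 3′ scores were 9.50 and 8.32. A GC dinucleotide in place of GT followed 1.57% of the exons and 0.817% of those outside the limits. The intron before the exon had a median length of 1630.5 nt, against 1274 nt outside the limits, with 1974 nt for risen and 1223 nt for fallen exons.

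The 71 exons under 50% in both libraries stood apart in annotation. Of these, 31 (43.7%) were fully coding and 22 (31.0%) lay in transcripts with no coding sequence over the exon, against 79.4 and 7.29% of all 3773. Their skipping junction was in GENCODE for 32.4%.

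Other readouts of the same reads gave the direction of the junctions for most exons. SpliceTrap's corrected inclusion ratio was higher in the knockdown library for 172 of the 172 exons that had risen and lower for 470 of the 473 that had fallen. That ratio draws on the same junction reads that made the call, so it is no separate check of direction. Among the 3128 exons whose interval included 0, the ratio was higher for 1285 and lower for 1820. Coverage of the exon body relative to its neighbours was higher for 151 of the 172, with a median log2 change of 0.17, and lower for 432 of the 473, with a median of -0.12. Among transcripts that Cufflinks listed, the skipping junction of the exons that had risen was present for 50 in the control and 19 in the knockdown library, and that of the exons that had fallen for 49 and 109. For 598 exons (15.8%) the inclusion junctions differed 5-fold or more in both libraries, so that their PSI rests mostly on 1 junction. Among the exons with values above these were those of Lrig2, Dpf2, Inpp5b, Trio, Dctn2, Phf10, Sqle, Plxnb2, Eif4g1 and Snap91. Of these, the listed exons of Lrig2, Dpf2, Inpp5b, Trio, Phf10 and Plxnb2 match no exon in GENCODE and share a splice site with another exon.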

How the data were processed

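RNA-seq libraries of N2A cells (1 control shRNA, 1 Ptbp1 shRNA; strand-specific, paired reads) were sequenced, and the submitters' processing notes name CASAVA, TopHat and Cufflinks and the mm9 build, with versions not given in the sources used here. The authors ran SpliceTrap and deposited, for each exon trio, raw junction read counts, inclusion ratios (a fraction, raw and corrected), and coverage in reads per 100 nt that is not scaled to library size. The authors also deposited Cufflinks FPKM with bounds and isoform coverage (mean read depth per base). FPKM sums were far from the usual scale, so FPKM was used only as a log2 ratio with a pseudocount of 1, summed over transcripts that share an intron with the GENCODE gene.

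Exons with several trios were represented by the trio with most reads over both libraries. Junction PSI had 95% Wilson intervals and differences 95% Newcombe intervals on inclusion reads rounded to whole reads. With 1 library per condition no test was run and no p-value is given. Exon ends fitted the NCBIM37 assembly (mm9) on 21 of 21 chromosomes, and AG and GT flanked 98.6% of constitutive-class exons outside the limits. Coding status and names came from GENCODE. The interval functions were tested on simulated data. The exons and gene lists were chosen with earlier results of these data known. Genes named are Ptbp1, Ptbp2 and Ptbp3, the 12 largest rises and falls with at least 100 junction reads in each library (exons that share a splice site counted once), up to 3 further exons per gene group with most reads, predicted exons and those at the limits; other names are marked where they stand. Some of these results are not reported here. The splice site score was added after seeing the data. Alternatives were other read minimums, PSI limits, inclusion junctions, trios, thresholds, windows and pseudocounts. SciPy 1.17.1, pandas 2.3.3, NumPy 2.4.6, matplotlib 3.10.9 and pysam 0.24.0 on Python 3.11.15 were used.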

Additional observations from a re-analysis of the deposited data

How the results depend on the processing

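The counts and medians were recomputed under other settings. With a minimum of 50 junction reads 343 exons were 5 points or more higher and 750 lower. With 100 there were 2088 exons, 176 higher and 468 lower, and a median control PSI of 94.0%. With limits of 10 to 90% there were 1610 exons, 367 higher, 659 lower, 104 risen and 240 fallen, with medians of -2.83 points and 87.2%. With 5 to 95% in both libraries there were 1740 exons, 248 higher, 429 lower, 64 risen and 148 fallen, with medians of -0.84 points and 89.2%. The smaller inclusion junction gave 5848 exons, 1428 higher and 2094 lower, and a median of 92.6%. SpliceTrap's corrected ratio gave medians of -1.50 points and 94.6%, and has no interval, so no counts of risen and fallen exons. With at least 5 skipping reads in each library there were 1779 exons, 178 higher, 380 lower, 98 risen and 283 fallen, with medians of -1.56 points and 91.6%. At 10 points 195 were higher and 307 lower, and at 20 points 41 and 51. In each of these settings more exons were lower than higher. A minimum of 10 reads, the larger junction, the trio with most skipping reads, exons that share no splice site and exons with AG and GT left each count within 1.5 times of its reported value. Of 183 pairs of a named exon and another measure, 0 reversed a call, but differences moved by over 1.5 times for some exons, Slc8a1, Apba1, Lrig2, Dpf2, Ep400, Trio, Nol12 and Hnrpdl among those called, with the values given beside them or here. From the smaller inclusion junction the Dpf2 difference was 0 (-15.3 from the larger) and the N4bp2 interval included 0, while those of 3 exons (Snap47, Slc25a33 and Kcnh2) excluded it, and from the larger junction the Sept11 interval included 0. SpliceTrap's ratio gave -33.9 points for Dpf2 and -3.3 for Hnrpdl. The median upstream pyrimidine share of risen and fallen exons was 63 and 58% over 50 nt and 53.6 and 51.6% over 250 nt. All 64 FPKM ratios moved by under 0.01 with a pseudocount of 0.1. The FPKM values were so large that neither pseudocount could shift them, so this is no check of the ratios. Apart from the numbers of exons that each setting admits, the cause of these shifts was not tested. No paired analysis was possible because each condition has 1 library. Depth limits exons near 20 reads, and intervals cover counting error only.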
